A study of Mus musculus with 48 samples.

Results

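The comparison is of the injected dentate gyrus of kainate mice with that of saline mice 14 days after injection. It rests on the 8 EZ libraries of day 14, taken by their labels from the 48 libraries of the series: kainate mice 27, 36, 14 and 40 and saline mice 24, 28, 39 and 31. EZ, the epileptogenic zone, is the dorsal dentate gyrus ipsilateral to the injection, and PIZ, the peri-ictal zone, is the contralateral one of the same mouse. All mice were wild-type C57BL/6J, of 6 to 8 weeks by the series record (the methods give a slightly older range), and each treatment and day held 2 males and 2 females. Kainate or saline was injected once into 1 hippocampus, and poly-A RNA of each mouse was sequenced without pooling. All kainate mice had an observed motor seizure after injection, but neither the seizure score nor the injection site is given per mouse.

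Kainate is an agonist of ionotropic glutamate receptors that sets off status epilepticus, after which hippocampal neurons are lost and glia react. Microglia, the resident macrophages of the brain, then take on lysosomal, complement and antigen presentation genes, and astrocytes raise intermediate filaments and acute phase proteins. Granule cells, the principal neurons of the dentate gyrus, are marked by the transcription factor Prox1 and by calbindin.

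Library totals lay between 17762656 and 22953569 counts in the 8 libraries, and that of mouse 27 was 22075978. Prox1 lay between 183 and 294 CPM (counts scaled to library size with TMM factors) in the 4 kainate libraries and between 242 and 314 CPM in the 4 saline libraries, so the labelled tissue carried its defining marker in all 8. Xist, the transcript of the inactive X chromosome, lay at 986 CPM or more in mice 27, 36, 24 and 28 and at 0.25 CPM or less in the other 4, a split of 2 and 2 in each group. No sequencing batch is given in the labels. In bulk tissue, fewer cells of a type and less RNA per cell cannot be told apart.

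Genes of microglia, complement, interferon response, antigen presentation and reactive astrocytes were upregulated at day 14, and few genes were downregulated. Of 21390 genes tested, 496 were upregulated (2.32%) and 8 downregulated (0.0374%), 504 in all (2.36%). DEG were called in an edgeR quasi-likelihood model of all 48 libraries, at a false discovery rate below 0.01 (Benjamini-Hochberg) and a change of more than 1.5-fold. The effect was carried unequally: mouse 27 had the highest of the 4 kainate values in 492 of the 496 upregulated genes, against 40.1% of all genes tested. Over the 496 genes, the median difference in log2 CPM from the mean of the saline libraries was 3.57 in mouse 27, 1.11 in mouse 40, 0.76 in mouse 14 and 0.55 in mouse 36.

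The count of DEG depended on the libraries in the model. Without mouse 27 it was 3, namely Cst7, C3 and Clec7a, and these were also called without each of the other 7 mice. Without another kainate mouse it was 831 to 919, and without a saline mouse it was 75 to 179. The 8 libraries fitted alone gave 0 DEG by edgeR, with 1665 genes at an unadjusted p under 0.05, and 39 DEG by DESeq2. The 24 EZ libraries gave 1, and the 16 day 14 libraries gave 0 with 3081 genes at an unadjusted p under 0.05. The balance of directions also moved. It was 34 higher and 24 lower by limma-voom with quality weights, and 33 higher and 6 lower by DESeq2 on the 8 libraries. With all libraries of the series, DESeq2 called more genes than edgeR, 717 higher and 16 lower. The calls below therefore rest on the spread estimated over all 12 groups of the series.

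**Figure D1:**
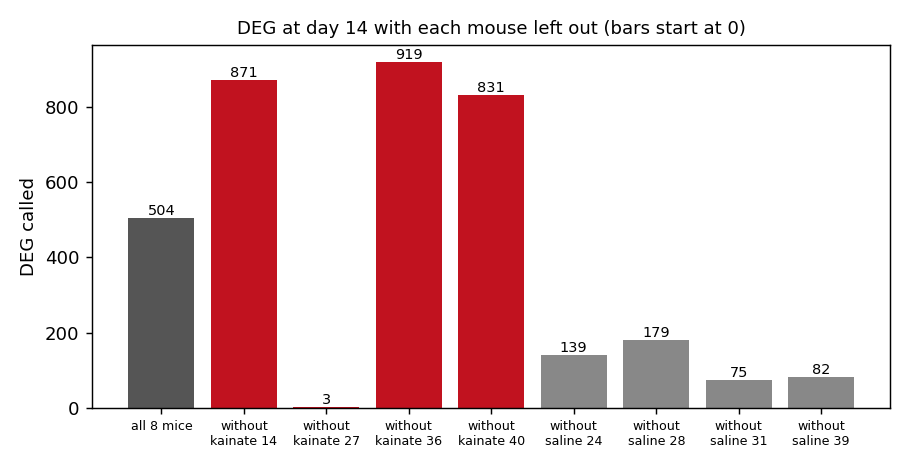
Bars give the number of DEG between kainate and saline in the EZ at day 14, from the 48-library model. Dark grey is all 8 mice (504), red a kainate mouse left out and light grey a saline mouse left out. Leaving out a mouse removed its EZ library only. The bar without kainate mouse 27 stands at 3, and those without another kainate mouse stand at 831 to 919.

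The spread among the kainate libraries was measured over genes that the day 14 mice did not choose. At day 7, in other mice, 4413 genes were upregulated (20.6%) and 2547 downregulated (11.9%) in the EZ. Over these genes, each library's signed mean difference in log2 CPM was taken from the saline libraries of its side and day, with downregulated genes counted in the opposite sign. It was 1.47 in mouse 27, 0.31 in mouse 40, 0.13 in mouse 14 and 0.10 in mouse 36. The day 14 saline libraries, each set against the other 3, lay between -0.08 and 0.09. Mouse 27 thus lay within the range of the day 7 kainate libraries, 0.99 to 1.99. The other 3 lay below all day 7 kainate libraries, and mice 14 and 36 lay just above the highest day 14 saline library. EZ saline libraries reached 0.04 at day 7 and 0.19 at day 3, the latter above mice 14 and 36. The 4 kainate mice averaged 0.50 ± 0.65 (SD) here. Those of day 7 averaged 1.54 ± 0.51 (SD), and those of day 3 averaged 1.17 ± 0.31 (SD), but the genes and signs were chosen by the day 7 mice, which favours that day. Over the genes called at day 3 instead, which favour day 3, the averages were 0.53 ± 0.67 (SD) at 14 days, 1.57 ± 0.49 (SD) for day 7 and 1.48 ± 0.32 (SD) for day 3, and mouse 27 was at 1.52 with the other 3 between 0.10 and 0.36.

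**Figure D2:**
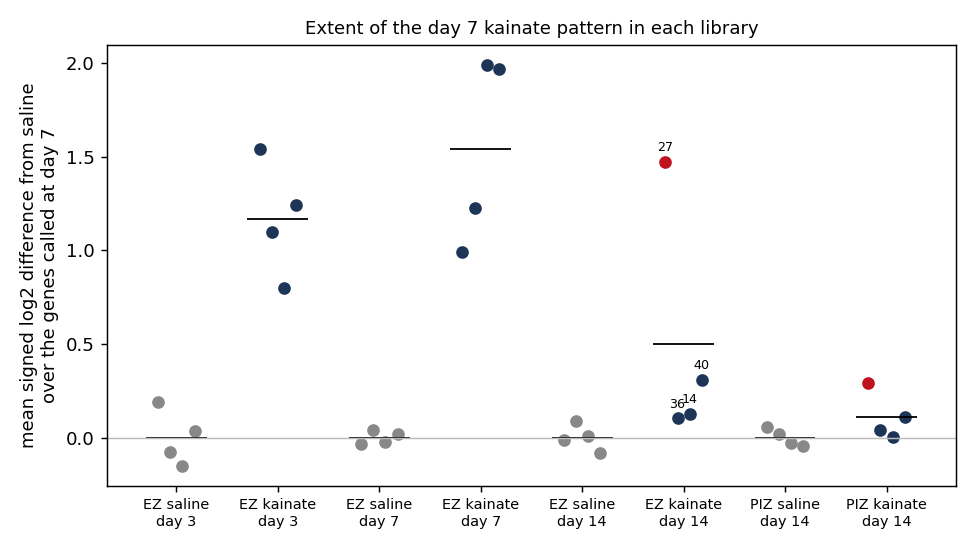
Each point is a library, and its height is the mean signed log2 CPM difference from the saline libraries of the same side and day over the genes called at day 7 in the EZ. Bars are group means of 4 mice, grey points are saline, blue points are kainate and red points are mouse 27, which lies at 1.47 in the EZ while mice 36, 14 and 40 lie between 0.10 and 0.31.

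Mouse 27 also stood apart when genes were counted one by one. In mouse 27, 2710 genes lay over 2-fold above the saline mean and 1662 over 2-fold below it. Mouse 40 had 380 above and 147 below, mouse 14 had 244 and 106, and mouse 36 had 207 and 73. The saline libraries, each set against the other 3, had 47 to 104 above and 41 to 86 below, so the count below in mouse 36 lay inside the saline range. The SD of log2 CPM over the 4 kainate mice had a median of 0.32 over all genes, against 0.15 over the 4 saline mice and 0.18 over the kainate mice without mouse 27. It was larger in kainate than in saline in 82.6% of genes. On the uninjected side, mouse 27 was again the highest of the 4 kainate mice, at 0.29 against 0.00 to 0.11 in the other 3.

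Most of the upregulated genes were above saline in the other 3 kainate mice too, by less. In 358 of the 496 genes (72.2%) all 4 kainate libraries lay above all 4 saline libraries, a separation found in 4.58% of all genes tested. The 496 genes were called from these same libraries, which favours separation and a positive change in them. The gap between the 2 shares is therefore no test of a shared effect. The model without mouse 27 gave a positive log2 fold change in 486 of the 496 and one over the 1.5-fold limit in 384, and the median went from 2.21 to 0.86. The mean difference of mice 36, 14 and 40 divided by that of mouse 27 had a median of 0.23 over the 496 genes (quartiles 0.18 and 0.29). In 295 of them the order from high to low was mouse 27, 40, 14, 36, and the share of all genes in that order was not taken.

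**Figure D3:**
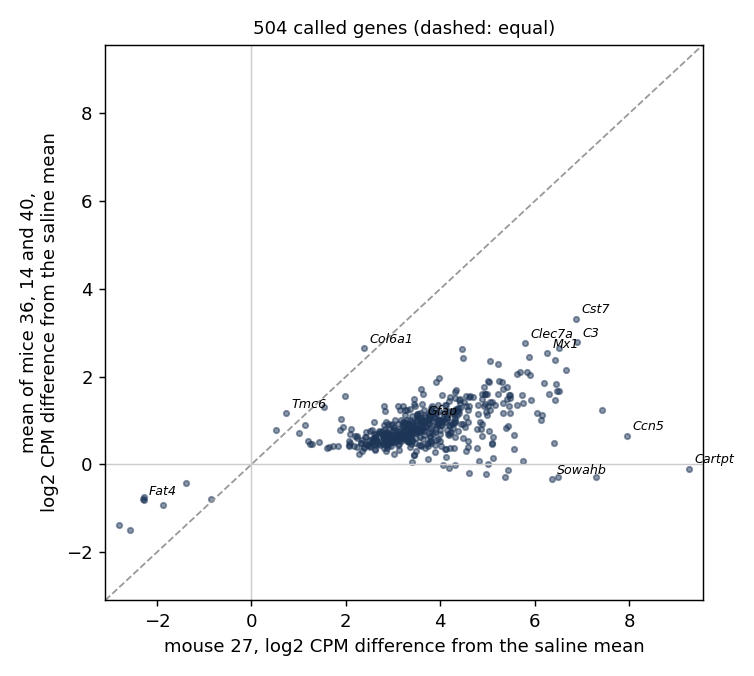
Each point is 1 of the 504 called genes, with the log2 CPM difference from the saline mean in mouse 27 on the horizontal axis and the mean difference of mice 36, 14 and 40 on the vertical axis. Most points lie to the right of 0 and below the dashed line of equality (median ratio 0.23 for upregulated genes), Cartpt and Sowahb lie near 0 on the vertical axis, and Col6a1 and Tmc6 lie above the line.

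With mouse 27 left out and the 7 remaining EZ day 14 libraries fitted alone, 1 gene of 18963 was called, Col6a1, with 1979 at an unadjusted p under 0.05. At an adjusted p under 0.05, a threshold chosen after seeing the data, 75 genes were upregulated (0.396%) and 10 downregulated (0.0527%), and 63 of these 85 were among the 504. This fit is called the 7-library fit below.

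The counts of upregulated list members that follow are from the model with all mice, and they moved with the mice in it. Over all genes tested 2.32% were upregulated and 0.0374% downregulated, so 0 called in a short list is near that share. In most lists of glial and immune genes the counts fell without mouse 27 or a saline mouse, and rose without another kainate mouse. The 1 gene of T and NK lymphocytes stayed called without a saline mouse or another kainate mouse, and the B cell count stayed at 0. For activated microglia the count of 15 was 2 without mouse 27, 8 to 12 without a saline mouse and 16 to 19 without another kainate mouse. In the same order, the 12 of complement were 1, 3 to 6 and 13 to 14, the 14 of phagocytosis and lysosome were 0, 3 to 7 and 18 to 21, and the 12 of innate receptors were 0, 1 to 3 and 19 to 23. The 10 of MHC class I presentation were 0, 1 to 7 and 12 to 13, the 2 of class II were 0, 1 to 2 and 2 to 3, and the 7 of interferon-inducible GTPases were 0, 0 to 3 and 9 to 10. The 10 chemokines were 0, 3 to 7 and 11, and the 17 of reactive astrocytes were 0, 6 to 12 and 18 to 20. The 3 neuropeptides and secreted proteins were 0, 1 to 2 and 5 to 6, and the 1 Wnt signaling gene and the 1 homeostatic astrocyte gene were 0, 0 and 3, and 0, 0 and 2.

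Cst7, of the list of activated microglia, had the smallest p of all genes, followed by C3 and Clec7a. Of 23 genes of activated and disease-associated microglia, 15 were upregulated and 0 downregulated, with a median log2 fold change of 2.49 against 0.00 over all genes tested, and 1.09 without mouse 27. Their mean difference from saline was 3.63 in mouse 27, 1.71 in mouse 40, 0.91 in mouse 14 and 0.75 in mouse 36. Their summed level was 3644 to 16693 CPM in kainate and 3131 to 3575 CPM in saline, and the groups did not overlap.

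Cst7, which encodes the cysteine protease inhibitor cystatin F, lies on chromosome 2 of GRCm39 from 150412284 to 150420864 (ENSMUSG00000068129.6). Its level was 178 CPM in mouse 27, 38.2 CPM in mouse 40, 10.7 CPM in mouse 14 and 8.14 CPM in mouse 36, against 1.38, 1.6, 2.4 and 0.738 CPM in saline mice 24, 28, 39 and 31. All kainate libraries were above all saline libraries. The log2 fold change was 5.25 ± 0.66 (SE, adjusted p = 2.31e-05, edgeR), and 3.65 ± 0.57 in the 7-library fit (adjusted p = 0.0354).

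Clec7a, the beta-glucan receptor dectin-1, lies on chromosome 6 from 129438554 to 129449742 (ENSMUSG00000079293.12). Its level was 94.4 CPM in mouse 27, 21 CPM in mouse 40, 9.97 CPM in mouse 14 and 7.30 CPM in mouse 36, and 1.08 to 2.15 CPM in saline. The groups did not overlap, and the order of the kainate mice was that of Cst7. The log2 fold change was 4.31 ± 0.60 (SE, adjusted p = 8.29e-05, edgeR).

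Other microglial genes had the same shape. Itgax, the integrin CD11c, was at 22.7 CPM in mouse 27 and 11.8, 4.48 and 2.86 CPM in mice 40, 14 and 36, against 0.443 to 1.6 CPM in saline. Cd68, a lysosomal membrane protein of macrophages, was at 135 CPM in mouse 27 and 16.1 to 30.9 CPM in the other kainate mice, against 6.87 to 9.86 CPM in saline. Hcar2, the receptor for hydroxybutyrate and niacin, was at 16.7 CPM in mouse 27 and 0.562 to 2.17 CPM in the others, and at 0.15 CPM or less in saline, so that its log2 fold change of 5.65 ± 0.83 rests on few saline counts. All 3 were upregulated without overlap. Ctsd, the lysosomal protease cathepsin D, was at 5360 CPM in mouse 27, 1050 CPM in mouse 40, 549 CPM in mouse 14, 476 CPM in mouse 36 and 290 to 348 CPM in saline. Of 26 genes of phagocytosis and the lysosome, 14 were upregulated, and all 4 kainate libraries lay above all saline libraries in 20.

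Lag3, an immune checkpoint receptor, was at 133 CPM in mouse 27 and 17.2 to 30.4 CPM in the other kainate mice, against 7.77 to 10.9 CPM in saline. Tlr2, a receptor for bacterial lipoproteins, was at 62.1 CPM in mouse 27 and 3.48 to 7.55 CPM in the others, against 1.52 to 2.26 CPM in saline. Ccl6, a chemokine of myeloid cells, was at 38.6 CPM in mouse 27, 10.6 CPM in mouse 40, 4.04 CPM in mouse 36 and 3.88 CPM in mouse 14, against 1.55 to 2.7 CPM in saline. All 3 were upregulated without overlap. Of 31 innate receptors and cytokine signaling genes, 12 were upregulated.

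Homeostatic microglial markers passed the test in part. Of 12, 5 were upregulated, Cx3cr1 and Sparc among them, the median log2 fold change was 1.07, and the median without mouse 27 was 0.30. In 6 of the 12 all kainate libraries lay above all saline libraries, and 0 of the 12 were called without mouse 27 or without any 1 of the 4 saline mice, against 9 to 10 without another kainate mouse. Their summed level was 619 to 3820 CPM in kainate and 528 to 566 CPM in saline. Sparc, a matricellular protein, was at 1330 CPM in mouse 27 but at 164 to 224 CPM in the others, which overlapped the saline range of 159 to 174 CPM. The sum of the microglial markers moved with the microglial, complement and lysosomal genes given here, and its part in those results was not tested.

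Complement genes were upregulated in 12 of 18, with a median log2 fold change of 2.35 and 0.73 without mouse 27. C3, the central component of the cascade, lies on chromosome 17 from 57510964 to 57535155 (ENSMUSG00000024164.16). C3 was at 98.4 CPM in mouse 27, 6.30 CPM in mouse 40, 5.62 CPM in mouse 36 and 5.14 CPM in mouse 14, against 0.393 to 1.22 CPM in saline. The other 3 kainate mice were close to each other and above all saline mice. Its log2 fold change was 5.13 ± 0.68 (SE, adjusted p = 3.81e-05, edgeR), and 2.80 ± 0.29 in the 7-library fit. C4b, a component of the classical pathway, was at 564 CPM in mouse 27 and 68.1 to 122 CPM in the others, against 38.9 to 41.9 CPM in saline. C4b has a near-identical neighbour, C4a, so reads may be shared between them. C1qa, a chain of the recognition molecule C1q, was at 754 CPM in mouse 27, 132 CPM in mouse 40, 83.6 CPM in mouse 14 and 58.6 CPM in mouse 36, against 43.8 to 48.1 CPM in saline.

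**Figure D4:**
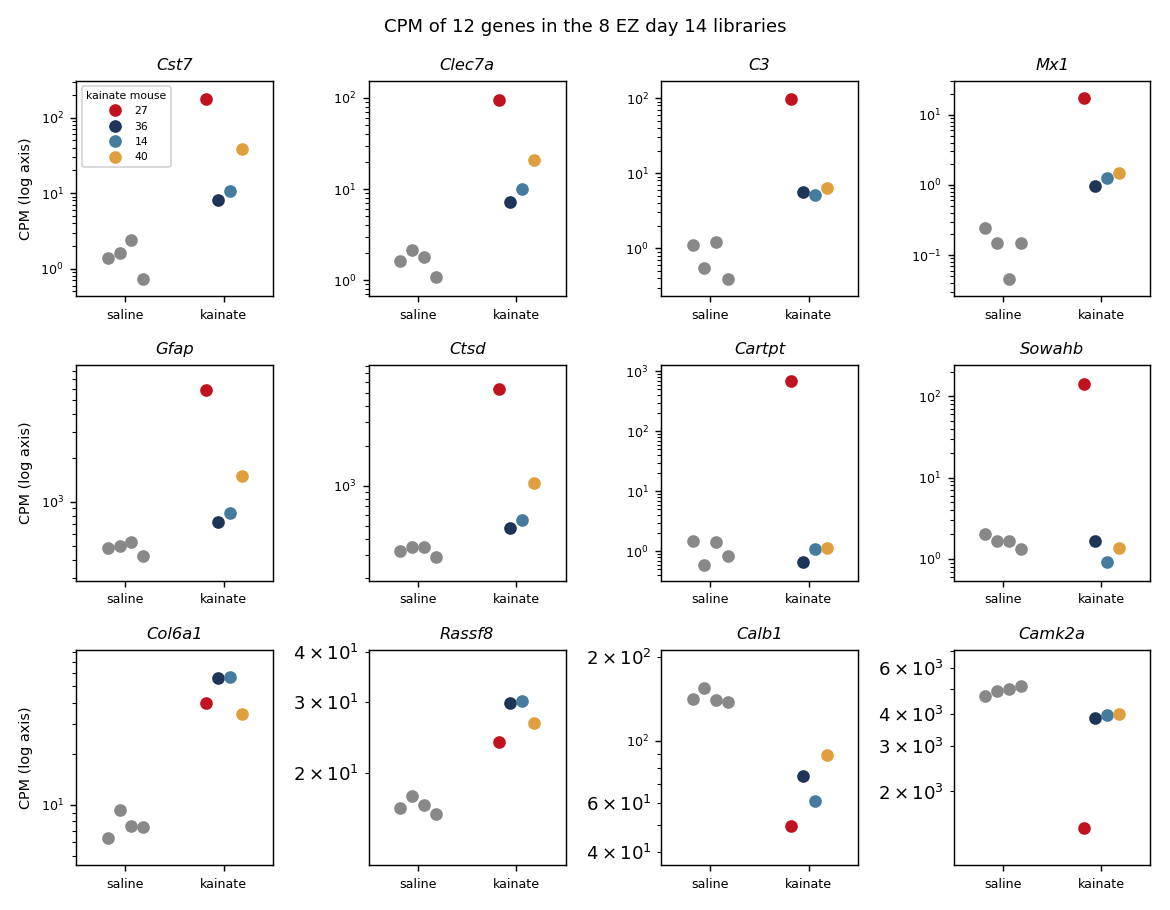
Each panel shows a gene, and each point is a library of the EZ at day 14, with CPM on a log axis, grey for saline and a colour for each kainate mouse, red for mouse 27, dark blue for 36, light blue for 14 and orange for 40. C3 and Cst7 show all kainate mice above all saline mice with mouse 27 highest, and Cartpt shows mouse 27 alone, at 681 CPM.

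Interferon-stimulated genes are switched on through STAT and IRF factors after interferon or nucleic acid sensing. Of 27 tested, 23 were upregulated, 21 of them without overlap between groups, with a median log2 fold change of 2.55 and 1.16 without mouse 27. Their mean difference from saline was 3.88 in mouse 27, 1.33 in mouse 40, 1.13 in mouse 14 and 0.90 in mouse 36. The count of 23 was 0 without mouse 27, 4 without saline mouse 31 or 39, 12 or 13 without saline mouse 28 or 24, and 24 to 25 without another kainate mouse. In the 7-library fit 0 passed at 0.01, and 8 passed at the 0.05 chosen after seeing the data: Ifit3, Ifit3b, Isg15, Oasl2, Oas1a, Usp18, Trim30a and Mx1.

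Mx1, an antiviral GTPase, was at 17.3 CPM in mouse 27 and 0.955 to 1.5 CPM in the other kainate mice, against 0.0452 to 0.247 CPM in saline, where few reads were counted. Isg15, a ubiquitin-like modifier, was at 20.2 CPM in mouse 27 and 2.02 to 2.77 CPM in the others, against 0.689 to 1.18 CPM in saline. Ifit3, which binds viral RNA together with its relatives, was at 96.9 CPM in mouse 27 and 12.5 to 19.4 CPM in the others, against 5.24 to 7.44 CPM in saline. In all 3 the other kainate mice lay close together and above saline. Oas1a, an oligoadenylate synthetase, was at 26.7 CPM in mouse 27 and 2.13 to 3.17 CPM in the others, against 0.639 to 0.899 CPM in saline. Oas1a and the pair Ifit3 and Ifit3b have close paralogs, and their counts are uncertain to that extent.

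Promoters of these genes are shown because many carry the repeat bound by STAT and IRF factors. The letters searched were GAAANNGAAA or, on the other strand, TTTCNNTTTC, within 250 bases before the start site in RefSeq promoters of GRCm38.p6, whereas the counts use GRCm39. They were found in 9 of 15 upregulated interferon-stimulated genes with a promoter in the table (60%), in 43 of 362 upregulated genes (11.9%), in 343 of 12819 genes tested (2.68%) and in 821 of 27025 promoters (3.04%). A match is a description of the letters and not a measured site. Capitals mark the match in the windows of Oas1a at chr5:120907526-120907585 on the minus strand, 20 bases before the start, of Trim30a at chr7:104465195-104465254 on the minus strand, 36 bases before it, and of Ifit3b at chr19:34607744-34607803 on the plus strand, 188 bases before it:
Oas1a: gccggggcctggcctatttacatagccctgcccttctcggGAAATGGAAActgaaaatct
Trim30a: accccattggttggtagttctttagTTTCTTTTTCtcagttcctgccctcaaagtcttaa
Ifit3b: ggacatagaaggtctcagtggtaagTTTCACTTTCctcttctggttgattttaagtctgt

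Trim30a, a tripartite motif protein, was at 55.7 CPM in mouse 27 and 5.0 to 7.66 CPM in the other kainate mice, against 1.99 to 3.74 CPM in saline. Ifit3b was at 60.1 CPM in mouse 27 and 10.4 to 15.4 CPM in the others, against 4.16 to 5.79 CPM in saline. Both were upregulated without overlap. Their log2 fold changes were 2.71 ± 0.50 for Trim30a and 2.34 ± 0.44 for Ifit3b (SE of the model with all libraries, n = 4 per group).

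Interferon-inducible GTPases and antigen presentation moved in the same direction. Of 15 GTPases, 7 were upregulated, with a median log2 fold change of 1.37 and 0.56 without mouse 27, and their mean difference was 2.59 in mouse 27 and 0.52 to 0.65 in the other 3. Of 18 genes of MHC class I presentation 10 were upregulated, with a median of 1.77 and 0.71 without mouse 27. B2m, the light chain of class I molecules, was at 920 CPM in mouse 27 and 140 to 192 CPM in the other kainate mice, against 70.5 to 98.1 CPM in saline. Nlrc5, the transactivator of class I genes, was at 22.1 CPM in mouse 27 and 2.36 to 4.80 CPM in the others, against 0.769 to 1.63 CPM in saline. In the 7-library fit 0 of the 18 passed at 0.01, and B2m, Nlrc5 and H2-D1 passed at 0.05. Of 9 class II genes, H2-DMb1 and Ctss were upregulated, and Ctss encodes the protease that trims the invariant chain.

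Chemokines were upregulated in 10 of 17, with a median log2 fold change of 3.04 and 1.71 without mouse 27. Cxcl10, a ligand of CXCR3 on T cells, was at 26.8 CPM in mouse 27 and 1.74 to 2.97 CPM in the other kainate mice, against 0.226 to 0.649 CPM in saline. Cxcl5, a ligand of neutrophil receptors, had another order, with 5.90 CPM in mouse 36, 5.01 CPM in mouse 40, 3.07 CPM in mouse 14 and 2.26 CPM in mouse 27, against 0.639 to 1.48 CPM in saline. Cxcl5 was not called with all mice (log2 fold change 1.81 ± 0.49, adjusted p = 0.0184, edgeR), and mouse 27 was its lowest kainate library.

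Markers of infiltrating leukocytes were at low levels. Of 16 genes of T and NK lymphocytes only 6 passed the filter on low counts, and the markers Cd3d, Cd3e, Cd3g, Cd2 and Cd8a did not. The 1 gene upregulated, Cd52, is also made by microglia and was at 72.2 CPM in mouse 27 and 3.59 to 9.60 CPM in the others, against 1.75 to 2.11 CPM in saline. Of 12 genes of monocytes, neutrophils and border macrophages 0 were called, and 1 without a kainate mouse other than 27, with summed levels of 10.8 to 37.7 CPM in kainate and 10.8 to 19.0 CPM in saline. Of 4 B cell genes 0 were called.

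Reactive astrocyte genes were upregulated in 17 of 28, with a median log2 fold change of 2.13 and 0.66 without mouse 27, and summed levels of 1180 to 9953 CPM in kainate and 750 to 881 CPM in saline. Gfap, the astrocyte intermediate filament on chromosome 11 from 102778159 to 102791738, was at 5870 CPM in mouse 27, 1500 CPM in mouse 40, 842 CPM in mouse 14 and 727 CPM in mouse 36, against 425 to 528 CPM in saline. Serpina3n, an acute phase protease inhibitor, was at 1140 CPM in mouse 27 and 83.6 to 129 CPM in the others, against 52.2 to 67.3 CPM in saline. Both were upregulated without overlap. Cd44, the hyaluronan receptor, was at 142 CPM in mouse 27 and 5.28 to 14.2 CPM in the others, against 1.95 to 3.76 CPM in saline. Of 17 genes of homeostatic astrocytes only Aqp4, the water channel, was upregulated, at 994 CPM in mouse 27 and 230 to 264 CPM in the others, against 172 to 206 CPM in saline. The summed level of that list was 7715 to 9467 CPM in kainate and 7714 to 8697 CPM in saline, and the groups overlapped.

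**Figure D5:**
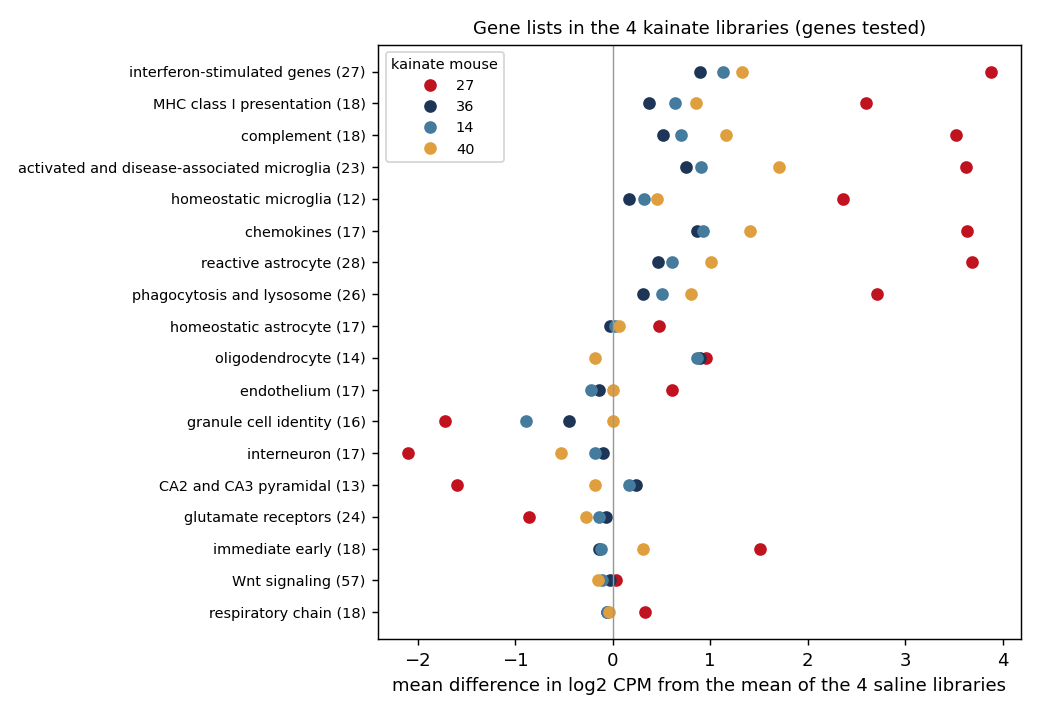
Each row is a gene list, and points give the mean log2 CPM difference from the saline mean over its tested members in each kainate mouse, red for mouse 27, dark blue for 36, light blue for 14 and orange for 40. Mouse 27 lies farthest right for the glial and immune lists, at 3.88 for interferon-stimulated genes, and farthest left for granule cell genes, at -1.71.

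In a few upregulated genes the size of the difference did not rest on mouse 27, although their calls in the 48-library model were lost without it. In 6 of the 496, Col6a1, Rassf8, Tmc6, Ccnf, Poln and Gm40117, the other 3 kainate mice reached over 0.75 of its difference, a limit set after the values were seen. Col6a1, a chain of collagen VI on chromosome 10 from 76543440 to 76562283 (ENSMUSG00000001119.8), was at 39.9 CPM in mouse 27, 56.4 CPM in mouse 36, 56.9 CPM in mouse 14 and 34.3 CPM in mouse 40, against 6.42 to 9.33 CPM in saline. Its log2 fold change was 2.61 ± 0.63 with all libraries (SE, adjusted p = 0.00868, edgeR), 2.69 ± 0.18 in the 7-library fit (adjusted p = 0.0012), and its adjusted p was 0.0121 with the 8 libraries alone. Its partner chain Col6a2 had another pattern, with 30.6 CPM in mouse 27 and 4.77 to 6.60 CPM in the others, against 1.43 to 2.60 CPM in saline, and was not called (adjusted p = 0.0129). Rassf8, a Ras association domain protein, was at 23.8 CPM in mouse 27 and 26.6 to 30.2 CPM in the others, against 15.8 to 17.5 CPM in saline. Rassf8 had a log2 fold change of 0.74 ± 0.15 and no overlap between groups.

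Other upregulated genes were high in mouse 27 alone. Cartpt, which encodes the neuropeptide precursor CART on chromosome 13 from 100034990 to 100047006, was at 681 CPM in mouse 27, 0.674 CPM in mouse 36, 1.11 CPM in mouse 14 and 1.13 CPM in mouse 40, against 0.599 to 1.48 CPM in saline. Its log2 fold change of 7.29 ± 1.3 turned to -0.14 without mouse 27. The other 3 kainate mice were inside the saline range. Trh, the thyrotropin-releasing hormone precursor, was at 62.8 CPM in mouse 27 and 0.151 to 0.376 CPM in the others, against 0.247 to 0.399 CPM in saline. Sowahb was at 143 CPM in mouse 27 and 0.907 to 1.68 CPM in the others, against 1.33 to 2.03 CPM in saline. Cacna1s, a calcium channel subunit best known from skeletal muscle, was at 45.7 CPM in mouse 27 and 0.292 to 0.393 CPM in the others, against 0.297 to 0.649 CPM in saline.

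Gdnf, a neurotrophic factor, was at 14.5 CPM in mouse 27 and 0.0504 to 0.292 CPM in the others, against 0.00 to 0.198 CPM in saline. Ccn5, a secreted matricellular protein, was at 25.1 CPM in mouse 27 and 0.225 CPM or less in all other 7 libraries. Scg2, the secretory granule protein secretogranin II, was at 2480 CPM in mouse 27 and 222 to 276 CPM in the others, against 199 to 254 CPM in saline. In these genes a call describes mouse 27 rather than the 4 kainate mice. Of 22 neuropeptides and secreted activity-regulated proteins 3 were upregulated (Scg2, Trh and Cartpt), and the list's mean difference was 1.36 in mouse 27 and -0.21 to -0.09 in the others. Of 18 immediate early genes 0 were called, against 2.36% of all genes tested, and at most 2 with a mouse left out. Fos was at 71.1 CPM in mouse 27 and 5.04 to 10.4 CPM in the others, against 2.50 to 7.52 CPM in saline.

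The 8 downregulated genes included Fat4, Trabd2b, Grik3, Lrrn1, Lpar4 and the unnamed ENSMUSG00000090863.2. In 7 of the 8 all kainate libraries lay below all saline libraries, a separation found in 3.42% of all genes tested. The 8 were called from these same libraries, which favours that separation. The exception was ENSMUSG00000090863.2. The count of 8 was 0 without mouse 27, 0 to 2 without a saline mouse, 12 without mouse 14, 14 without mouse 36, 28 without mouse 40, and 0 in a test against 1.5-fold. Grik3, a kainate receptor subunit, was at 11.8 CPM in mouse 27, 24.9 CPM in mouse 14, 37.6 CPM in mouse 36 and 43.3 CPM in mouse 40, against 51.5 to 61.7 CPM in saline. Its log2 fold change was -0.97 ± 0.22 (SE, adjusted p = 0.00618, edgeR). Fat4, an atypical cadherin, was at 15.3 CPM in mouse 27 and 32.5 to 50.4 CPM in the others, against 67.2 to 79.0 CPM in saline. Lpar4, a receptor for lysophosphatidic acid, was at 2.67 CPM in mouse 27 and 2.25 to 3.37 CPM in the others, against 4.10 to 6.14 CPM in saline, so here mouse 27 was not the most extreme.

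Grik3 was the 1 downregulated among 24 glutamate receptor genes, and 0 were upregulated. Of 16 granule cell genes 0 were called, while 0.0374% of all genes tested were downregulated, a share that so short a list cannot be told from. Their median log2 fold change was -0.60, with mean differences of -1.71 in mouse 27, -0.88 in mouse 14, -0.44 in mouse 36 and 0.00 in mouse 40. Calb1, the calcium buffer calbindin on chromosome 4 from 15881155 to 15908085, was at 49.3 CPM in mouse 27, 60.9 CPM in mouse 14, 74.7 CPM in mouse 36 and 88.9 CPM in mouse 40, against 138 to 155 CPM in saline. The groups did not overlap, yet Calb1 was not called with all libraries (log2 fold change -1.07 ± 0.34, adjusted p = 0.057, edgeR) and was -0.93 ± 0.11 in the 7-library fit (adjusted p = 0.023). Camk2a, a kinase of excitatory synapses, was at 1440 CPM in mouse 27 and 3860 to 4000 CPM in the other kainate mice, against 4670 to 5120 CPM in saline (adjusted p = 0.242).

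Interneuron genes were not called in 17 of 17, while 2.36% of all genes tested were called. Their mean difference was -2.10 in mouse 27 and -0.53 to -0.10 in the others. Their summed level was 959 to 1197 CPM in kainate and 1175 to 1426 CPM in saline. Of 20 genes of immature neurons and progenitors 0 were called at 0.01 with all libraries or in the 7-library fit, and Sox11, Igfbpl1 and Calb2 were higher in the latter at the looser 0.05, at which 0 passed with all libraries. Calb2, calretinin of mossy cells and young granule cells, was at 2.35 CPM in mouse 27 but at 10.7 to 13.2 CPM in the other kainate mice, against 7.28 to 8.10 CPM in saline. Mouse 27 was thus below and the other 3 above all saline libraries. Sox11, a transcription factor of young neurons, was at 23.6 CPM in mouse 27 and 33.6 to 38.2 CPM in the others, against 21.2 to 25.3 CPM in saline.

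Myelin genes split the kainate mice in another way. Of 14 oligodendrocyte genes 0 were called, against 4 higher without mouse 40 and 2 at an adjusted p under 0.05, with mean differences of 0.96 in mouse 27, 0.90 in mouse 36 and 0.86 in mouse 14 but -0.18 in mouse 40. Mbp, the myelin basic protein, was at 2640, 2210 and 2200 CPM in mice 27, 36 and 14 and at 1080 CPM in mouse 40, against 1050 to 1470 CPM in saline (adjusted p = 0.0869, edgeR). Of 57 Wnt signaling genes 1 was called, the secreted inhibitor Sfrp5, against 2.36% of all genes tested. Sfrp5 was at 3.44 CPM in mouse 27 and 0.112 CPM or less in all other libraries, and the list's median log2 fold change was -0.03.

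The day 14 genes were largely those of the earlier days, in separate mice. Of the 496 upregulated genes, 492 were also upregulated at day 7 (99.2% of the 496, and 11.1% of the 4413) and 455 at day 3, when 3439 of all genes tested were (16.1%). In the EZ their median log2 fold change went from 2.31 (day 3) through 3.55 (day 7) to 2.21 (day 14), and on the uninjected side it was 0.34 for the day 14 mice. These genes were chosen by the day 14 mice, which favours that day, and without mouse 27 the day 14 median was 0.86. The kainate effect differed between day 14 and day 7 in 58 genes (0.271%), with 26 higher and 32 lower at day 14, and between day 14 and day 3 in 351 genes (1.64%), with 161 higher and 190 lower. Without mouse 27 these counts were 4110 and 2296. The 58 became 15 without mouse 40, 1 or 2 without each of the other 6 mice, and 1 on the 24 EZ libraries. The 351 became 126 without mouse 14, 132 without mouse 36, 189 without saline mouse 28, 162 without saline mouse 39 and 30 on the 24 EZ libraries.

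Among the genes with the smallest p for that difference, Cck, the cholecystokinin precursor, changed by -0.09 (log2) on day 14 against -2.13 on day 7, a difference of 2.04 (adjusted p = 4.69e-05, edgeR). Its level was 153 CPM in mouse 27 and 86.4 to 141 CPM in the other kainate mice, against 110 to 154 CPM in saline. Hmcn2, an extracellular hemicentin, changed by 0.14 (log2) on day 14 against 4.78 on day 3, a difference of -4.64 (adjusted p = 2.68e-09, edgeR). Hmcn2 was at 0.898 to 1.18 CPM in kainate and 0.939 to 1.09 CPM in saline. The groups overlapped for both genes, and mouse 27 did not stand apart. Between the injected and the uninjected side at day 14, the kainate effect differed in 0 genes by edgeR, with 1562 at an unadjusted p under 0.05, and in 2 by DESeq2.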

How the data were processed

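Per the labels and the methods, the authors trimmed reads with fastp 0.20.1, aligned them to GRCm39 with HISAT2 2.2.1 and counted them per Gencode gene with featureCounts of Subread 1.6.4, strand-aware, with multi-mapping reads kept at their primary alignment. The deposited values are raw counts per gene in 48 libraries of 24 mice, with no normalization. RNA of all samples was extracted together. Gene symbols and GRCm39 positions came from the reference annotation.

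The counts were fitted with edgeR 4.0.16 in R 4.3.3 (filterByExpr, TMM, quasi-likelihood test) with 1 mean for each of the 12 groups, and DEG were called at 0.01 (adjusted) and 1.5-fold, as in the study. The filter kept 21390 of 55357 genes. CPM are TMM-scaled, and log2 CPM used a prior count of 2. SE is the log2 fold change divided by the root of F. An exact permutation test of 4 against 4 libraries cannot give a p under 0.02857. In the model of all libraries, p-values and SE rest on a spread pooled over the 12 groups. That model counts the 2 libraries of a mouse as independent. Its p-values and SE therefore do not measure the spread among the 4 kainate mice compared here. In simulated counts the 48-library fit called 72% of 2-fold and 91% of 4-fold changes, and the 8-library fit 41% and 82%. The simulation had 1 spread per gene for all groups, independent libraries and no outlying library. It therefore cannot show how the fit behaves with a library like mouse 27.

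The 2 libraries of a mouse come from the same animal, and their deviations from the group means correlated at r = 0.0386 to 0.349 over the 8 day 14 mice. Alternatives were DESeq2 1.42.0, limma-voom (limma 3.58.1), other scalings, filters, thresholds, subsets of libraries and a mouse block. In others, the EZ library of each day 14 mouse was left out in turn. The members and the 44 gene lists were chosen with earlier results of these data known. Genes were named by rank of p in each direction, by calls without each mouse, by the widest gap between groups, by the widest gap of the top kainate library, and by abundance and p within each list. Some further genes were chosen after their values were seen: Oas1a, Isg15, Trim30a, Ifit3b, C4b, Cxcl10, Cxcl5, Cd68, Col6a2, Sox11 and, of the 6 with a ratio over 0.75, all but Col6a1. Some genes that the rule would name are not reported here.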

Additional observations from a re-analysis of the deposited data

Results flagged for a closer look

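Values were looked at for a library far from the other 3 of its group by Dixon's ratio of gap to range, over 81 genes and 162 groups. Chance gives about 1 in 20 groups of genes chosen without regard to their values, a rate that does not hold here, since some genes (Cartpt, Cacna1s, Trh, Sowahb, Gdnf and Ccn5) were named for the gap of their top kainate library and others after their values were seen. In 21 kainate groups a library stood apart, and in 20 of these it was mouse 27. The signed mean over the day 7 genes had a ratio of 0.851, the number of genes over 2-fold above saline 0.931 and the number over 2-fold below 0.953, all with mouse 27 apart. In log2 CPM of the kainate libraries, the ratio was 0.932 for C3, 0.832 for Treml2, 0.850 for Mx1, 0.846 for Oas1a, 0.866 for Isg15, 0.858 for Irgm1, 0.831 for B2m, 0.850 for Sparc, 0.834 for Serpina3n and 0.906 for Aqp4. It was 0.931 for Cartpt, 0.951 for Cacna1s, 0.882 for Trh, 0.884 for Sowahb, 0.910 for Scg2, 0.879 for Calb2, 0.8295 for Foxj1, 0.966 for Camk2a, 0.928 for Gria1 and 0.870 for Sfrp5. Mouse 36 stood apart for Hmcn2 (0.837). In 7 saline groups a library stood apart: mouse 39 for Lrrn1 (0.845), Sparc (0.838) and Gm40117 (0.980), mouse 31 for Ccn5 (1.0), and mouse 24 for Dsp (0.919), Mbp (0.973) and Sfrp5 (1.0). Ccn5, Sfrp5 and Gm40117 had few reads in saline.

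The kainate effect differed between days by a test of the difference. It differed in 58 genes between day 14 and day 7 and in 351 between day 14 and day 3. On the log2 scale, the day 14 effect minus the day 7 effect was 2.04 for Cck, 1.55 for Vsnl1, -2.43 for Hmcn2 and -0.76 for Myo10. Minus the day 3 effect it was 1.41 for Cck, 1.35 for Vsnl1, 3.30 for Cxcl5, 0.88 for Slc1a2, 2.62 for Atp10b, 1.09 for Abat, -4.64 for Hmcn2 and -0.84 for Dnmt1. The causes were not tested.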

How the results depend on the processing

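The number of DEG at day 14 (504) was 304 with at least 10 counts in every library, 137 with a test against 1.5-fold, 58 with limma-voom with quality weights, 39 with DESeq2 on the 8 libraries, 1 on the 24 EZ libraries, 0 on the 16 day 14 libraries, 0 on the 8 libraries and 1 on 7 without mouse 27 (85 there at an adjusted p under 0.05, added after seeing the data), and 1030 at an adjusted p under 0.05. Leaving out each mouse gave 3 to 919. Other settings did not shrink the count of upregulated genes. DESeq2 on all libraries gave 717 higher and 16 lower, and another scaling (RLE) gave 514 and 8. Library size scaling gave 515 and 4, and no low count filter gave 523 and 6. For day 14 minus day 7 (58), DESeq2 gave 895, at least 10 counts 97, library size scaling 95, limma-voom 6301, no filter 4, the 24 EZ libraries 1, an adjusted p under 0.05 2378, and leaving out mice 1 to 4110. For day 14 minus day 3 (351), these were 680 by DESeq2, 5204 by limma-voom, 30 on the 24 EZ libraries, 1229 at an adjusted p under 0.05, and 126 to 2296. For EZ minus PIZ, DESeq2 gave 2, and with each mouse as a replicate block, which pairs its libraries, 0 genes were called by edgeR, with 1611 at an unadjusted p under 0.05; the block changed no call.

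Log2 fold changes that turned sign were, in the 7-library fit, Cartpt -0.13, Sowahb -0.33, C1ql2 0.26 and Abat 0.022. Without mouse 27 they were Cartpt -0.14, Cacna1s -0.41, Trh -0.28, Sowahb -0.34, C1ql2 0.25 and Abat 0.014. By limma-voom they were Cacna1s -0.16, Trh -0.40, Sowahb -0.27 and Abat 0.061. Abat was 0.015 with library size scaling, 0.019 without mouse 40 and 0.0068 without saline mouse 24, Cck was 0.047 without mouse 40, and C1ql2 was 0.053 without saline mouse 39. The other ends of the leave-one-out ranges were 7.71 for Cartpt, 5.14 for Cacna1s, 6.05 for Trh, 4.87 for Sowahb, -0.61 for C1ql2, -0.21 for Cck and -0.060 for Abat. Of the values for named genes under these alternatives, 1144 kept direction and side of the threshold, 430 lost the call, 30 gained it and 19 turned sign. The causes were not tested.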
